A study of Mus musculus with 8 samples.

Results

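The proteins of the cytosolic ribosome were followed at the RNA level in TNFR2+ and TNFR2- regulatory T cells (Tregs). Genes were taken by symbol, namely those that begin with Rpl or Rps and a digit, together with *Rplp0*, *Rplp1*, *Rplp2* and *Rpsa*, without symbols that carry -ps and without the Rps6k kinases. This gave 87 of the 20172 genes in the table. Of these, 48 encode proteins of the large subunit and 31 encode proteins of the small subunit. The other 8 are 6 retrocopies or like-named copies (*Rps27rt*, *Rpl37rt*, *Rps12l1*, *Rps3a2*, *Rps4l* and *Rpl6l*) and 2 genes that share the prefix but do not encode a protein of the mature cytosolic ribosome (*Rps19bp1* and *Rpl7l1*). The symbols *Rps12*, *Rps3a3*, *Rpl3l*, *Rpl10l*, *Rpl32l* and *Rpl39l* were not analysed here.

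The cells came from spleens of untreated female Foxp3 YFP-cre mice. In this strain a yellow fluorescent protein fused to Cre is made where *Foxp3* is active, so the marker follows Foxp3 expression, and both groups carry it. CD4 T cells positive for the marker were sorted into a TNFR2+ and a TNFR2- population, and 4 total RNA libraries of each were sequenced. The number stated after the mice of this experiment equals the number of libraries in each group, which points to separate mice, but whether the same mouse gave both populations is not given in the sources used here. A p value measures the spread between these libraries.

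A ribosome holds a small subunit, which reads the message, and a large subunit, which joins amino acids. Each subunit needs most of its proteins in equal numbers, and ribosomal protein mRNAs are among the most abundant of a lymphocyte. Most of them begin with a cytosine followed by a run of pyrimidines (a 5′ terminal oligopyrimidine tract, or TOP), through which mTOR and the protein LARP1 set how strongly they are translated. That control acts on translation and is not read by RNA levels.

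Sequence features that the family shares were read from the RefSeq promoter table (GRCm38.p6), which holds 63 of the 87 genes and 59 of the 79 subunit genes. The letters CTTTC, on the sense strand from 20 bases before to 50 bases after the annotated start, occurred in 31 of these 59 genes (52.5%), compared with 10.3% of the 26962 other genes in the table. A run of at least 8 pyrimidines in the same stretch was found in 47 of 59 (79.7%), compared with 28.4% of the others, and these searches overlap. The letters CGGAAG, the core of a site for ETS factors, were found on either strand of the 300-base window in 41 of 59 (69.5%) and in 18.7% of the others. The letters AAGATGGCG, the core of a YY1 site, were found in 3 of 59 (5.08%) and in 1.63% of the others. A match describes these letters and is not a mapped start or a bound site. The starts of 6 genes, from 3 bases before to 27 bases after the annotated start, are shown because these genes recur among the results, with CTTTC in capitals where it occurs. In the 30 bases of *Rpl41* and at the first of the annotated starts of *Rps27l* the letters did not occur. Most subunit genes held no CTTTC in these 30 bases, *Rps16*, *Rplp0* and *Rpl5* among them. The 6 genes shown thus do not stand for the family, and the 52.5% is for the longer stretch.
Rpl13a chr7:45128719-45128748, minus strand: caagacctcctcCTTTCccaggcggctgcc
Rplp2 chr7:141447648-141447677, plus strand: ttcCTTTCgccgccggacgccgccgaggtc
Rps26 chr10:128626480-128626509, minus strand: gccggatcctCTTTCgagtcttggctccaa
Rps27 chr3:90213622-90213651, minus strand: gctcCTTTCcggcggtgacgacctccctac
Rps27l chr9:66946083-66946112, plus strand: gccgcctctatcccggaagttgctgagggg
Rpl41 chr10:128549142-128549171, minus strand: ctcggaagtgacgacaccgagcacgccatt

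The sort and the libraries were checked first. *Tnfrsf1b*, which encodes TNFR2, had 3148, 1839.8, 2631 and 2383 normalized counts in TNFR2+ replicates 1 to 4 and 1266, 1563, 1177 and 1277 in TNFR2- replicates 1 to 4, and the groups did not overlap. *Foxp3* ranged from 2812 to 3313 in TNFR2+ and 3292 to 4033 in TNFR2- libraries, and *Ptprc* (CD45) from 15232 to 16140.2 in TNFR2+ and 16879.7 to 18160.1 in TNFR2- libraries. The estimated depth was 9615000 to 12110000 reads in TNFR2+ libraries and 9100000 to 10980000 in TNFR2- libraries. Treg markers (7 genes, all listed) had a mean log2 level of 11.76 to 11.87 in TNFR2+ and 11.29 to 11.57 in TNFR2- libraries. Among markers of other cells, B cell markers (6 of 7 listed) lay at 4.92 to 5.52 and 4.03 to 6.16. CD8 and NK markers (5 of 7) lay at 4.07 to 4.56 and 3.17 to 4.34, plasma cell markers (4 of 4) at 5.61 to 6.72 and 4.78 to 5.93, and myeloid markers (4 of 8, with *Lyz2* and *Cd14* not listed) at 0.81 to 1.65 and 0.89 to 3.05. A single erythroid marker of 8 was listed, at 0 to 3.71 and 0 to 3.54, and a single platelet marker of 5, at 3.73 to 7.80 and 5.01 to 7.48. The highest myeloid level, 3.05, was in TNFR2- replicate 4, the library that also stood apart for ribosomal proteins, and its part in the results below was not tested. In sorted populations measured in bulk, fewer cells of a type and less RNA per cell cannot be told apart.

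No gene of the family differed between the populations at the threshold used. Of the 84 genes with a mean of at least 10 normalized counts, 0 were higher and 0 were lower at an adjusted p under 0.05 (limma on log2(normalized count + 1), Benjamini-Hochberg adjustment over the 13990 genes tested), where 7.91% of all genes passed in either direction. Without adjustment, p was under 0.05 for 2 genes that were higher (2.38%, compared with 12.3% of all genes) and for 10 that were lower (11.9%, compared with 10.7% of all genes). The groups did not overlap for 2 of the 84 (2.38%, compared with 15.4% of all genes), namely *Rps27l*, above in TNFR2+ Tregs, and *Rpl5*, below. The log2 difference, TNFR2+ minus TNFR2-, was positive in 16 genes and negative in 68, with a median of -0.12 beside -0.01 over all genes tested, and the median became 0.01 when libraries were scaled to equal totals (0.12 over all genes). Without TNFR2- replicate 4 the median was 0.02, with 46 genes positive and 38 negative and an unadjusted p under 0.05 in 4 genes upward and 2 downward. In that fit 1 gene, *Rpl41*, passed the adjusted threshold, as did 6.53% of all genes. The median standard error of a member was 0.17 on the log2 scale, above the median difference. Protein-coding genes outside the family with transcripts under 1000 bases had a median of 0.28 over 838 genes, of which 68 passed the threshold upward and 5 downward. Those of at least 1000 bases had a median of 0.02, and the part of transcript length in the family's values was not tested.

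**Figure D1:**
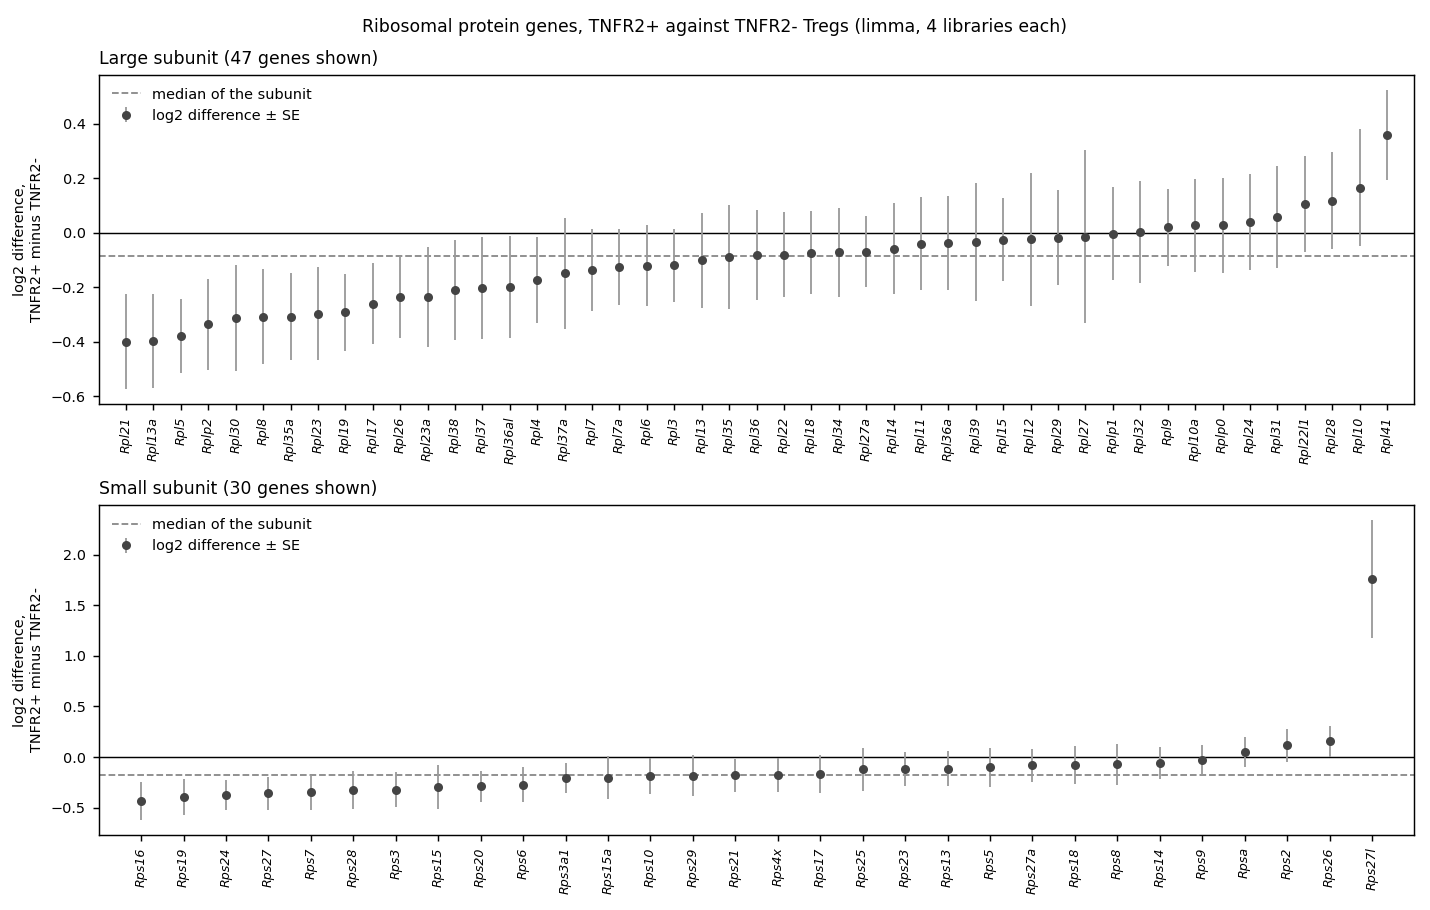
Log2 difference (TNFR2+ minus TNFR2-) of 47 of the 48 large and 30 of the 31 small subunit genes, sorted by value, with the standard error as bars and the median of each whole subunit as a line. The medians were -0.08 and -0.18, and *Rps27l*, at 1.76, lies far above the other genes.

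Large subunit genes had a median log2 difference of -0.08 (10 positive, 38 negative) and small subunit genes of -0.18 (4 positive, 27 negative) in the deposited scaling. In limma 0 of either passed the adjusted threshold. At an unadjusted p under 0.05, 1 large subunit gene was higher and 4 were lower. Of the small subunit genes, 1 was higher and 5 were lower. By the same p, 12.3% of all genes were higher and 10.7% lower. The difference between the subunits was not tested. Apart from *Rps27l*, subunit genes lay between *Rps16* at -0.43 and *Rpl41* at 0.36.

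Among genes with a mean of at least 50, *Rps27rt*, *Rps16*, *Rpl21* and *Rpl13a* were among the 5 lowest values. *Rps16*, a protein of the small subunit head, had 2260.1, 2974, 2391 and 2909.6 normalized counts in TNFR2+ replicates 1 to 4 and 2917, 3789.9, 2729 and 5175 in TNFR2- replicates 1 to 4. TNFR2- replicate 4 was the highest library by a wide margin, and the groups overlapped (log2 difference -0.43, standard error 0.18, adjusted p = 0.177). *Rpl21* of the large subunit had 5059, 6731, 5371 and 6983 in TNFR2+ and 6603, 8649, 6161 and 10986 in TNFR2- libraries (log2 difference -0.40, standard error 0.17, adjusted p = 0.188). Its lowest TNFR2- libraries lay among the TNFR2+ libraries. *Rpl13a*, which besides its place in the large subunit is known from a complex that silences inflammatory mRNAs, had 12399.8, 15722, 14438 and 16242 in TNFR2+ and 15292, 19501, 15987 and 28826 in TNFR2- libraries (log2 difference -0.40, standard error 0.17, adjusted p = 0.186). Without TNFR2- replicate 4 the log2 differences of *Rps16*, *Rpl21* and *Rpl13a* lay between -0.25 and -0.20.

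*Rpl41*, the shortest ribosomal protein, of the large subunit, went the other way. It had 3366, 4332, 3195 and 3921 normalized counts in TNFR2+ replicates 1 to 4 and 2525, 2856, 2324 and 4008 in TNFR2- replicates 1 to 4. The first 3 TNFR2- replicates lay below every TNFR2+ library, while replicate 4 was the second highest of all 8 (log2 difference 0.36, standard error 0.17, adjusted p = 0.212, exact permutation p = 0.143, two-sided). Without that library its log2 difference was 0.52 (adjusted p = 0.0397, within 0.0397 to 0.432 over the fits that each left out 1 library). *Rps26*, a small subunit protein near the mRNA exit, had 4553, 5559.6, 3900.4 and 4740.1 in TNFR2+ and 3705, 4634, 3379 and 5242 in TNFR2- libraries (log2 difference 0.16, standard error 0.15, adjusted p = 0.592). *Rpl10*, which joins the large subunit late in its assembly, had 3119, 4462, 2354 and 2819 in TNFR2+ and 2625, 3018, 1926 and 3825 in TNFR2- libraries (log2 difference 0.17, standard error 0.21, adjusted p = 0.701). For *Rps26* and *Rpl10* the libraries of the groups were interleaved. Near-identical copies held 25.2% of the sum of *Rpl10* and its copies, and that sum had a log2 difference of 0.07 (adjusted p = 0.802 from limma). *Rps12l1* had 0, 0, 311 and 292 in TNFR2+ and 0, 0, 0 and 704 in TNFR2- libraries (log2 difference 1.76, standard error 2.39, adjusted p = 0.716), so it was listed at 0 in 5 libraries and its value rests on the 3 others. *Rps19bp1*, a nucleolar regulator of SIRT1 and no ribosomal protein, had 75.6, 98.4, 52.3 and 187 in TNFR2+ and 67.5, 63.9, 62.9 and 121 in TNFR2- libraries (log2 difference 0.28, standard error 0.41, adjusted p = 0.734), and these 5 were the highest values among genes with a mean of at least 50.

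Of the 3 genes for ribosomal protein eS27, *Rps27l* had the higher mean in TNFR2+ and the other two in TNFR2- libraries, with none past the adjusted threshold and no test of the difference between them. *Rps27* (chr3:90212522-90213651 of GRCm38, minus strand) is the main gene, *Rps27l* (chr9:66946086-66949516, plus strand) is a paralogue known as a target of p53, and *Rps27rt* (chr9:114982366-114982739, minus strand) is a retrocopy. Their coding sequences, taken from the GENCODE transcripts of GRCm38, are shown because they decide which reads can be told apart. The capitals in *Rps27l* mark each base that differs from *Rps27*.
Rps27: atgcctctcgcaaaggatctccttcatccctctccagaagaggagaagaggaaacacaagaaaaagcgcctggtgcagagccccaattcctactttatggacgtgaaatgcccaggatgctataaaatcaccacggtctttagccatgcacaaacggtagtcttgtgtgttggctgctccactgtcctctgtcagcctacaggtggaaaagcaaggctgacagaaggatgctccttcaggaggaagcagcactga
Rps27l: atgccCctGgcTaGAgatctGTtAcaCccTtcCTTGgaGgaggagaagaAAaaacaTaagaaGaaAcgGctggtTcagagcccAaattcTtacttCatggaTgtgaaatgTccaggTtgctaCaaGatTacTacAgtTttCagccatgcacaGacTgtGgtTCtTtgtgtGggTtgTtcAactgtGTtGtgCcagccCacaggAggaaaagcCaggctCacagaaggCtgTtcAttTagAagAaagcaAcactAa

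*Rps27* and *Rps27l* differ at 61 of 255 coding bases (76.1% identity), so reads can be assigned to either. The coding sequence of *Rps27rt* differs from that of *Rps27* at 0 of 255 bases, so their reads cannot be told apart there. *Rps27l* had 83.6, 49.7, 46.9 and 32.3 normalized counts in TNFR2+ replicates 1 to 4 and 26.8, 9.36, 6.43 and 23.3 in TNFR2- replicates 1 to 4. Its lowest TNFR2+ value, 32.3, lay above its highest TNFR2- value, 26.8 (log2 difference 1.76, standard error 0.58, adjusted p = 0.0853, exact permutation p = 0.0286, two-sided and the lowest that 4 against 4 libraries can give). The fits that each left out 1 library gave log2 differences of 1.42 to 2.05, with adjusted p values from 0.0737 to 0.220. *Rps27l* was also the subunit gene that followed the others least across the libraries, with a Pearson correlation of -0.20 to the family median over 8 libraries that share their scaling, where the next lowest was 0.48 for *Rpl27*. It had the lowest mean of the subunit genes, 34.8 normalized counts beside 337 for *Rpl27*. The part of this low level in the correlation was not tested.

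*Rps27* had 2228, 2615, 2174 and 2553 in TNFR2+ and 2541, 3134, 2536 and 4325 in TNFR2- libraries (log2 difference -0.36, standard error 0.16, adjusted p = 0.210). Its highest TNFR2+ libraries lay above its lowest TNFR2- libraries. *Rps27rt* had 92.8, 116, 162 and 164 in TNFR2+ and 445, 260.2, 162 and 324 in TNFR2- libraries (log2 difference -1.10, standard error 0.32, adjusted p = 0.0520, exact permutation p = 0.0571, two-sided). The groups touched at TNFR2- replicate 3, which lay level with TNFR2+ replicates 3 and 4. The adjusted p of *Rps27rt* ranged from 0.0265 to 0.175 over the alternatives with all libraries and from 0.0113 to 0.139 over the fits that each left out 1. Summed with *Rps27rt*, *Rps27* had 2321, 2731, 2336 and 2717 in TNFR2+ and 2986, 3395, 2698 and 4649.6 in TNFR2- libraries (log2 difference -0.41, standard error 0.16, adjusted p = 0.127), where the groups again overlapped at TNFR2- replicate 3.

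**Figure D2:**
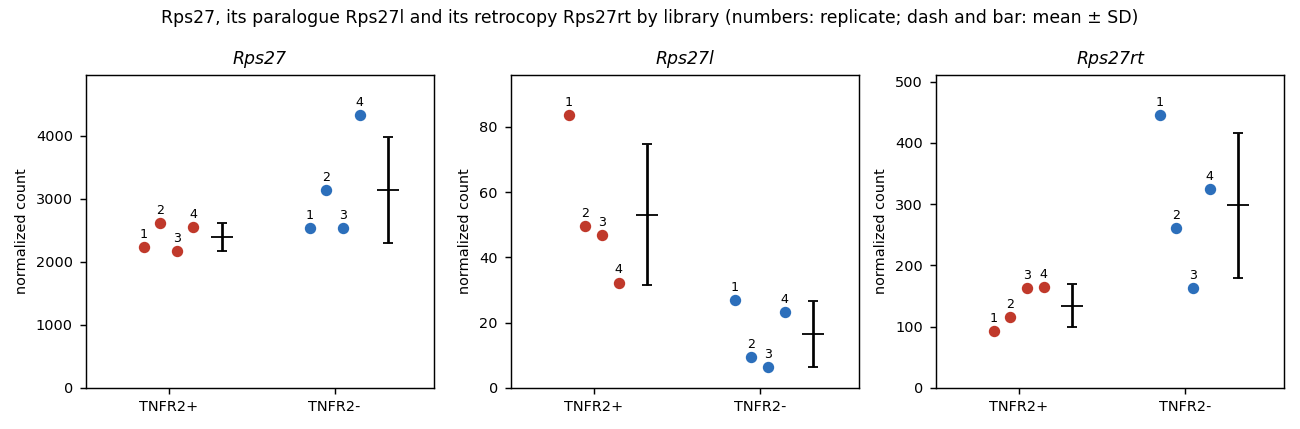
Normalized counts (vertical axes, from 0) of *Rps27*, *Rps27l* and *Rps27rt* in the 4 TNFR2+ and 4 TNFR2- libraries, with replicate numbers at the points and the mean ± SD beside them. *Rps27l* is higher in TNFR2+ libraries without overlap (32.3 to 83.6 and 6.43 to 26.8), while *Rps27* and *Rps27rt* have higher means in TNFR2- libraries.

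The other paralogues had log2 differences closer to 0. *Rpl22*, an RNA-binding protein with a known part in lymphocyte development, had 4150.0 ± 568 and 4444 ± 1081 normalized counts in TNFR2+ and TNFR2- libraries (mean ± SD, n = 4, log2 difference -0.08, standard error 0.16, adjusted p = 0.812 from limma), and its sign turned under other scalings. Its paralogue *Rpl22l1* had 464 ± 69.1 and 430.3 ± 52.6 (log2 difference 0.11, standard error 0.18, adjusted p = 0.776 from limma). *Rpl36a*, whose sign also turned, had 2039.8 ± 332 and 2115 ± 509.6 (log2 difference -0.04, standard error 0.17, adjusted p = 0.932), and *Rpl36al* had 722 ± 154 and 823 ± 138 (log2 difference -0.20, standard error 0.19, adjusted p = 0.580). None of these pairs held a gene whose groups were apart. *Rpl7* (log2 difference -0.14, adjusted p = 0.643) and the assembly factor *Rpl7l1* (-0.06, adjusted p = 0.883) had signs that turned under other scalings or without single libraries. *Rps4x* was at -0.18 (adjusted p = 0.590) and *Rps3a1* at -0.21 (adjusted p = 0.438), whereas their copies *Rps4l* (0 to 10.3 in TNFR2+ and 0 to 10.2 in TNFR2- libraries) and *Rps3a2* (0 in all TNFR2+ and 0 to 15.3 in TNFR2- libraries) were under the minimum mean, as was *Rpl6l* (0 to 9.36 in TNFR2+ and 0 to 18.2 in TNFR2- libraries). *Rpl3*, at the catalytic centre, was at -0.12 (adjusted p = 0.652) and *Rpl39*, a small protein of the exit tunnel, at -0.03 (adjusted p = 0.950), and the sign of both turned under other scalings.

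Proteins were also grouped by place in the ribosome. The P stalk, which recruits elongation factors and is made of *Rplp0*, *Rplp1*, *Rplp2* and their anchor *Rpl12*, had a median log2 difference of -0.01 over its 4 genes. *Rplp0* had 13295, 15542, 13344 and 15172 in TNFR2+ and 11202, 15281, 10861 and 20828 in TNFR2- libraries (log2 difference 0.03, standard error 0.17, adjusted p = 0.949). *Rplp1* had 7693, 9726, 8243 and 9388 in TNFR2+ and 7166, 8813, 7085 and 13055 in TNFR2- libraries (log2 difference 0.00, standard error 0.17, adjusted p = 0.994). *Rplp2* had 6055, 7155, 8084 and 8654 in TNFR2+ and 7707, 8971, 8214 and 13517 in TNFR2- libraries (log2 difference -0.34, standard error 0.17, adjusted p = 0.254). For all 3 proteins the TNFR2- libraries spread more widely than the TNFR2+ libraries, with TNFR2- replicate 4 the highest. Without that library this held for *Rplp0* only, and the TNFR2- values of *Rplp1* and *Rplp2* spread less than the TNFR2+ values. The nascent chain exit tunnel (9 genes) had a median of -0.17, the small subunit head (13 genes) of -0.18 with all 13 negative in the deposited scaling, and the platform (3 genes) of -0.06. These groups held 0 genes past the adjusted threshold in limma, with 2 head genes lower at an unadjusted p under 0.05. By that p 10.7% of all genes were lower.

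*Rpl5* and *Rpl11* form, with 5S rRNA, the particle that can bind MDM2 when ribosome assembly fails. *Rpl5* (chr5:107900502-107909005 of GRCm38, plus strand) had 844, 943, 1108 and 1017 normalized counts in TNFR2+ replicates 1 to 4 and 1163, 1321, 1207 and 1382 in TNFR2- replicates 1 to 4. Its highest TNFR2+ value lay below its lowest TNFR2- value (log2 difference -0.38, standard error 0.14, adjusted p = 0.110, exact permutation p = 0.0286, two-sided). Its copies held most of the sum of gene and copies, which is given with the other copies. *Rpl11* had 2803, 3473, 3089.7 and 3447 in TNFR2+ and 2838, 3701, 2437 and 4524 in TNFR2- libraries (log2 difference -0.04, standard error 0.17, adjusted p = 0.925), and the groups overlapped.

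Proteins with known roles beside protein synthesis gave values within the range of the family. *Rps6*, the substrate of the S6 kinases below mTORC1, had 8789.8, 11303, 9717 and 11557 in TNFR2+ and 10449.6, 13863, 9337 and 17505 in TNFR2- libraries (log2 difference -0.27, standard error 0.17, adjusted p = 0.380). *Rps19*, mutated in Diamond-Blackfan anaemia, had 2846, 3763, 3176 and 3264 in TNFR2+ and 3697, 4700.2, 3091 and 6162 in TNFR2- libraries (log2 difference -0.39, standard error 0.18, adjusted p = 0.216). In both, TNFR2- replicate 3 lay among the TNFR2+ libraries. *Rps3*, which also binds NF-κB p65, was at -0.32 (adjusted p = 0.290). *Rps14* was at -0.06 (adjusted p = 0.868) and *Rps27a*, made as a fusion with ubiquitin, at -0.08 (adjusted p = 0.815), both with signs that turned under other scalings. *Rpl38*, which is known to favour the translation of Hox mRNAs, ranged from 912 to 1324 in TNFR2+ and 1082 to 1869.6 in TNFR2- libraries (log2 difference -0.21, standard error 0.18, adjusted p = 0.541).

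Levels between genes were compared per kilobase of a single annotated transcript per gene, so the order depends in part on that choice. Some of these transcripts are long, such as that of *Rpl5* at 2045 bases. Reads counted under copies were left out. The 5 highest, as group means in TNFR2+ and TNFR2- libraries, were *Rpl26* (19680.5 and 23544 normalized counts per kilobase), *Rplp2* (17784 and 22808), *Rplp1* (17560.2 and 18096), *Rpl13a* (14040.3 and 19008) and *Rpsa* (15890.1 and 15701). *Rpsa*, a small subunit protein also known as the laminin receptor, had, without division by length, 22503, 26257, 25569 and 27305 normalized counts in TNFR2+ replicates 1 to 4 and 20393, 24636, 20385 and 35008 in TNFR2- replicates 1 to 4 (log2 difference 0.05, standard error 0.15, adjusted p = 0.882), and the groups overlapped. *Rpl26*, which also binds the p53 mRNA, was at -0.24 (adjusted p = 0.381). *Rps27* stood at 6935 and 9084 per kilobase and *Rps27l* at 92.4 and 28.7.

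Summed by subunit, the family differed more between libraries than between populations. The large sum includes the copies *Rpl37rt* and *Rpl6l*, and the small sum includes *Rps27rt*, *Rps12l1*, *Rps3a2* and *Rps4l*. Large subunit genes summed to 198226, 249749, 211832 and 246276 normalized counts in TNFR2+ replicates 1 to 4 and to 210895, 264898, 206337 and 350821 in TNFR2- replicates 1 to 4. Small subunit genes summed to 128091, 159234, 138231 and 159787 and to 133154, 171912, 130168 and 228512. In both sums TNFR2- replicate 4 was the highest library and the other 7 were interleaved. The log2 ratio of the group means was -0.19 for the large and -0.18 for the small subunit, and without TNFR2- replicate 4 these ratios were -0.01 and 0.01. The ratio of the large to the small sum stayed between 1.53 and 1.59 in all 8 libraries. As a share of all normalized counts, both subunits together took 3.41%, 3.97%, 3.47% and 4.02% in TNFR2+ and 3.25%, 3.80%, 3.21% and 5.14% in TNFR2- libraries. The first 3 TNFR2- replicates thus lay among or below the TNFR2+ libraries.

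**Figure D3:**
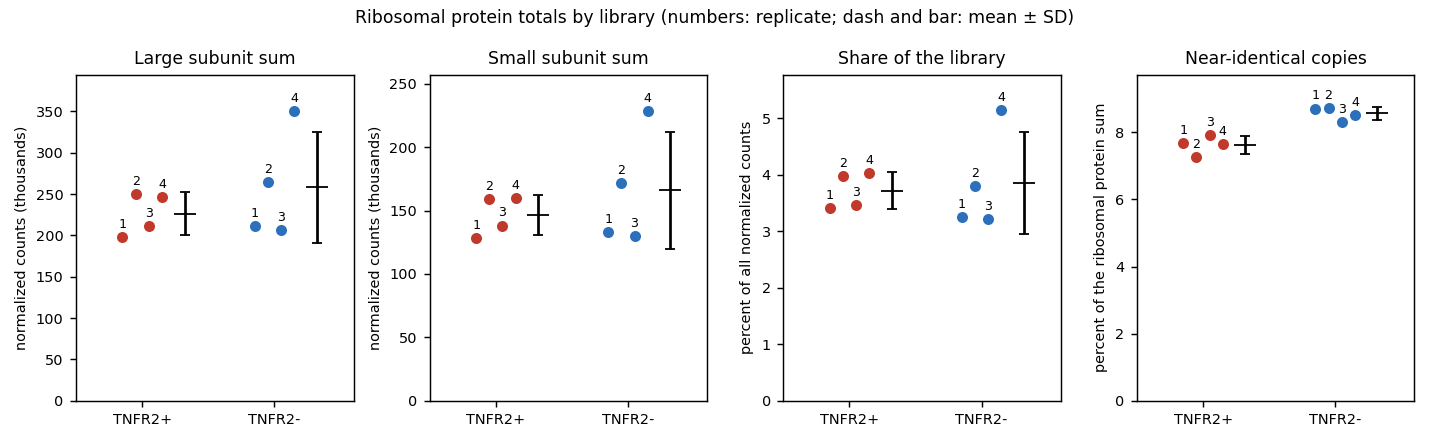
Sums of the large and small subunit genes (normalized counts, scaled as on the axes), their share of the library (percent) and the sum of their near-identical copies in percent of the ribosomal protein sum, by library, with mean ± SD (axes from 0). The sums include the like-named copies within the family, and the near-identical copies are those outside it. TNFR2- replicate 4 lies above all others in the sums and the share (350821, 228512 and 5.14%), while the copies take 7.25% to 7.92% in TNFR2+ and 8.32% to 8.73% in TNFR2- libraries.

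The genes moved together from library to library. TNFR2- replicate 4 was the highest of the 8 libraries for 71 of the 79 subunit genes, and its median deviation from the gene means was 0.55 on the log2 scale, whereas the other 7 libraries lay between -0.26 and 0.18. TNFR2+ replicate 1 was the lowest for 36 genes and TNFR2- replicate 3 for 24. Across the 8 libraries the median Pearson correlation between pairs of subunit genes was 0.85, and it was 0.90 for deviations from the group means. This is a description, since the libraries share their scaling and the genes their sequencing depth. The median SD of a subunit gene within TNFR2+ libraries was 0.19 on the log2 scale, compared with 0.38 for all genes tested. Within TNFR2- libraries it was 0.38 (0.44 for all genes), or 0.22 without replicate 4. TNFR2- replicate 4 also had the highest share of *Gm26917* and *Gm42418*, which hold rRNA sequence, at 11.4% of its total, where the other libraries had 6.01% to 10.1%. Its share of mitochondrial genes was 10.5%, within the 9.15% to 12.1% of all libraries. The part of these shares in the ribosomal protein levels was not tested.

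**Figure D4:**
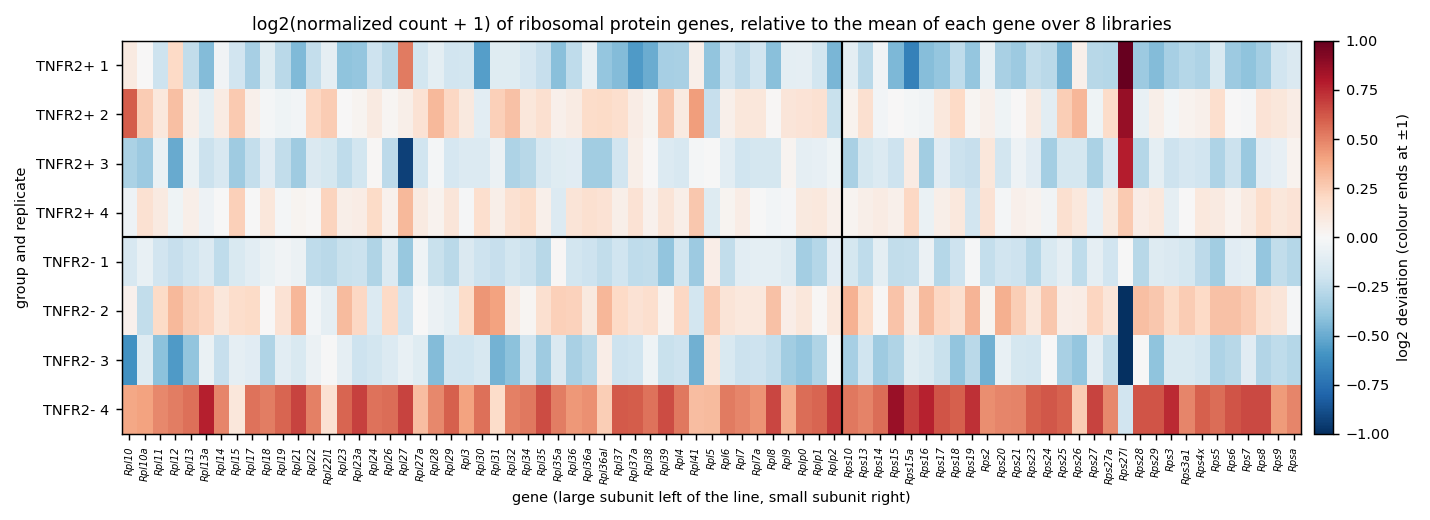
Deviation of log2(normalized count + 1) from the mean of each gene (colour) for 77 of the 79 subunit genes (columns) in 8 libraries (rows, TNFR2+ above the line). The row of TNFR2- replicate 4 is high in almost every column (median 0.55, highest library for 71 genes), and the column of *Rps27l* runs against its neighbours.

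Because the libraries differed in the level of the whole family, each gene was also expressed as a percent of the ribosomal protein sum in its library. That sum joins the large and small sums, with the like-named copies they include, and the scale was chosen after the data were seen. On it the groups did not overlap for 19 of 79 subunit genes (24.1%), 10 of them above and 9 below in TNFR2+ Tregs, where 10.8% of all genes did not overlap after the same scaling. These shares are not like for like, because dividing by the family sum takes the variation that the family shares out of its own genes and puts it into all others, and before this scaling 15.4% of all genes did not overlap. In limma on this scale, 2 of the 79 had an unadjusted p under 0.05 and 0 passed after adjustment. Without TNFR2- replicate 4, 23 genes did not overlap (29.1%, 10 above and 13 below, compared with 16.3% of all genes), which hold the 19 by construction, since groups that lie apart in 8 libraries cannot overlap in fewer. Shares of different genes are not independent, since they add up to the same total, and the scaling moved the median of all genes to 0.15.

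*Rpl41* took 1.03%, 1.06%, 0.913% and 0.966% of the family sum in TNFR2+ replicates 1 to 4 and 0.734%, 0.654%, 0.691% and 0.692% in TNFR2- replicates 1 to 4. The groups were well apart (log2 difference 0.52, standard error 0.16, adjusted p = 0.103). *Rpsa* took 6.90%, 6.42%, 7.30% and 6.72% in TNFR2+ and 5.93%, 5.64%, 6.06% and 6.04% in TNFR2- libraries (log2 difference 0.21, standard error 0.14, adjusted p = 0.493). *Rplp0*, the base of the P stalk, took 4.07%, 3.80%, 3.81% and 3.74% in TNFR2+ and 3.26%, 3.50%, 3.23% and 3.60% in TNFR2- libraries (log2 difference 0.18, standard error 0.14, adjusted p = 0.568). In both the gap between the groups was smaller than the range within either group. *Rplp1* took 2.31% to 2.38% in TNFR2+ and 2.02% to 2.25% in TNFR2- libraries, *Rps26* took 1.11% to 1.40% in TNFR2+ and 0.905% to 1.08% in TNFR2- libraries, and *Rps2*, at the mRNA entry of the small subunit, took 1.25% to 1.52% in TNFR2+ and 1.05% to 1.21% in TNFR2- libraries. *Rps9*, *Rpl11*, *Rpl28* and *Rps27l* were the others above. In 3 of these the groups nearly touched, since *Rpl11* took 0.849% to 0.883% in TNFR2+ and 0.724% to 0.847% in TNFR2- libraries, *Rpl28* took 0.553% to 0.669% in TNFR2+ and 0.481% to 0.546% in TNFR2- libraries and *Rps27l* took 0.00795% to 0.0256% in TNFR2+ and 0.00191% to 0.00778% in TNFR2- libraries.

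In the other direction, *Rps16* took 0.693%, 0.727%, 0.683% and 0.717% in TNFR2+ and 0.848%, 0.868%, 0.811% and 0.893% in TNFR2- libraries (log2 difference -0.28, standard error 0.16, adjusted p = 0.418). *Rpl13a* took 3.80%, 3.84%, 4.12% and 4.00% in TNFR2+ and 4.44%, 4.46%, 4.75% and 4.98% in TNFR2- libraries (log2 difference -0.24, standard error 0.14, adjusted p = 0.424). In both genes TNFR2- replicate 4 held the highest share. *Rpl21* took 1.53% to 1.72% in TNFR2+ and 1.83% to 1.98% in TNFR2- libraries, and *Rps24* took 1.61% to 1.81% in TNFR2+ and 1.87% to 2.12% in TNFR2- libraries. *Rps27*, *Rps7*, *Rps3* and *Rpl26* were among the others below, and *Rpl26* too had a narrow gap (2.66% to 2.83% in TNFR2+ and 2.84% to 3.02% in TNFR2- libraries). Apart from *Rps27l*, the log2 differences of these 19 genes on this scale lay between -0.28 and 0.52.

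**Figure D5:**
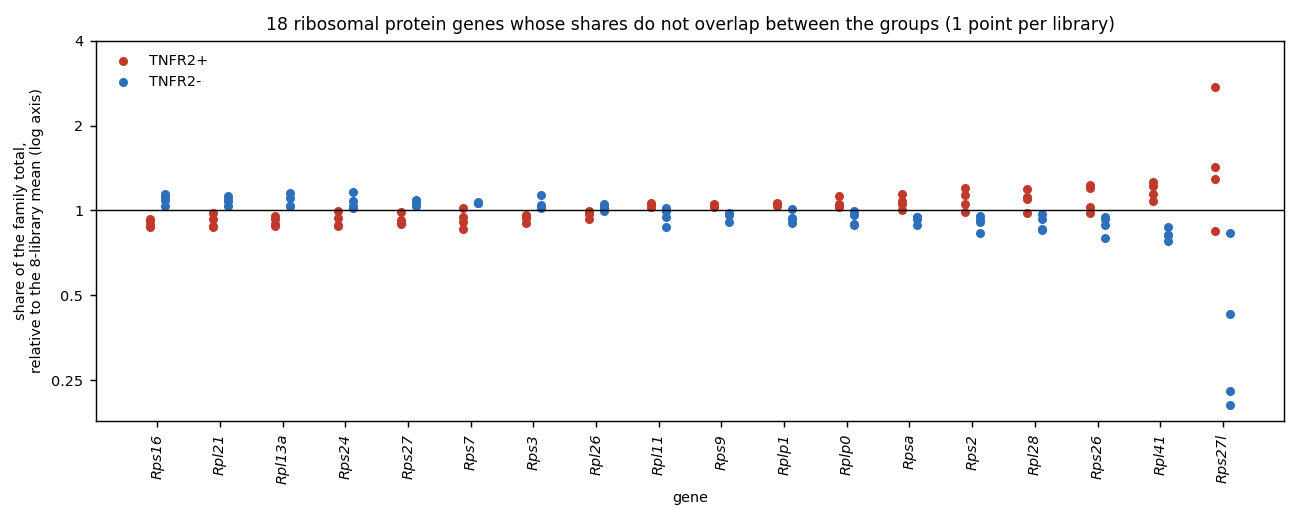
Share of the ribosomal protein sum held by 18 of the 19 subunit genes whose shares do not overlap between the groups, divided by its mean over 8 libraries (log axis), with 1 point per library. The points of TNFR2+ and TNFR2- libraries are apart for every gene shown, since that is how the genes were chosen, and the widest gap is that of *Rpl41*. The means differ most for *Rps27l*, whose groups nearly touch.

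The mouse genome holds many processed pseudogenes of these genes, and the estimation of transcript abundance can divide reads between a gene and a near-identical copy. At 95% or more identity over at least 50% of the transcript, 544 annotated copies were found, 140 of them in the table. Copies outside the family summed to 7.67%, 7.25%, 7.92% and 7.65% of the ribosomal protein sum in TNFR2+ replicates 1 to 4 and to 8.71%, 8.73%, 8.32% and 8.52% in TNFR2- replicates 1 to 4. The groups did not overlap in this share, and TNFR2- replicate 4 lay among its group. Most of these counts were copies of *Rpl5* and *Rpl12*, with means of 14560.3 and 6422 over all libraries. All copies outside the family summed on average to 28367.5 in TNFR2+ and 36365.8 in TNFR2- libraries. The share is thus carried largely by 2 parent genes, and it was not computed without them. Of 33 copies with a mean of at least 10, 27 were lower and 6 higher in TNFR2+ Tregs, with a median log2 difference of -0.38. In limma 0 of them passed the adjusted threshold, and 3 lower and 0 higher had an unadjusted p under 0.05. Of all genes, 10.7% were lower and 12.3% higher by that p. With copies added to their parent genes before the fit, 0 genes of the family passed.

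For *Rpl5*, *Rpl12*, *Rpl27* and *Rpl14*, more was counted under copies than under the gene itself. *Rpl5* held 1123 normalized counts on average and its copies 14560.3, or 92.8% of the sum. The copies include *Gm15500*, a transcribed processed pseudogene on chromosome 7 whose aligned stretch is 100% identical over 76.4% of the *Rpl5* transcript. Together they had 11836, 14599, 13311 and 14334 in TNFR2+ and 14533, 18698, 13650.2 and 24506 in TNFR2- libraries. The groups, separate for *Rpl5* alone, overlapped in the sum (log2 difference -0.37, standard error 0.16, adjusted p = 0.188). For *Rpl12* the copy *Gm10275* on chromosome 10 held 88.5% of the sum, which was 5347, 6508, 5672 and 7325 in TNFR2+ and 6634, 8469, 6393 and 11694 in TNFR2- libraries (log2 difference -0.38, standard error 0.17, adjusted p = 0.206). The gene alone was at -0.02 (adjusted p = 0.969), with a sign that turned under other scalings, so the value of *Rpl12* depends on how its copy is counted. For *Rpl27* the copy *Rpl27-ps3* held 88.0%, and the sum was at -0.06 (adjusted p = 0.878). Copies held 58.6% for *Rpl14* and 40.8% for *Rpl31*, with sums at -0.06 and -0.14, where *Rpl31* alone was at 0.06. Smaller parts were held by copies of *Rpl10a* (30.3%) and *Rpl10* (25.2%). Their sums were at -0.10 and 0.07, where the genes alone were at 0.03 and 0.17. The levels of all these parent genes taken alone are uncertain.

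*Rps12-ps3*, an annotated protein-coding copy of *Rps12*, had 3112, 4075, 2515 and 3038 normalized counts in TNFR2+ replicates 1 to 4 and 1980.0, 2693, 2230.0 and 2283 in TNFR2- replicates 1 to 4 (log2 difference 0.46, standard error 0.15, adjusted p = 0.0833). Its highest TNFR2- library lay above its lowest TNFR2+ library. It is no member by the rule, and reads of *Rps12* itself may be counted in it.

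A few further ribosomal proteins have other names. *Fau*, a fusion of a ubiquitin-like protein with eS30, had 823, 812, 961 and 1031 in TNFR2+ and 648, 634, 651 and 1051 in TNFR2- libraries (log2 difference 0.31, standard error 0.18, adjusted p = 0.346). *Rack1*, a scaffold on the small subunit, had 5288, 6182, 4582 and 5849.7 in TNFR2+ and 5013, 6723, 4497 and 9600.4 in TNFR2- libraries (log2 difference -0.18, standard error 0.20, adjusted p = 0.636). The highest value of both was in TNFR2- replicate 4, as in most of the family.

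Genes that build ribosomes were compared through lists. Of 113 tested ribosome biogenesis genes, 1 was higher and 1 lower past the threshold (1.77% in either direction, compared with 7.91% of all genes), with a median of -0.03. At an unadjusted p under 0.05 from limma, 2 were higher and 10 lower, where 12.3% of all genes were higher and 10.7% lower. *Nol10*, a nucleolar protein, had 1010.0, 1189.7, 966 and 934 in TNFR2+ and 697, 559.9, 693 and 489 in TNFR2- libraries (log2 difference 0.76, standard error 0.16, adjusted p = 0.0114). *Nop53*, which takes part in large subunit assembly, had 3365, 2879.7, 2608 and 3608 in TNFR2+ and 4329.8, 3995, 4109.7 and 4943 in TNFR2- libraries (log2 difference -0.49, standard error 0.13, adjusted p = 0.0316). Neither gene overlapped between the groups. The call of *Nop53* was lost in 4 of 12 alternatives with all libraries, among them equal library totals (adjusted p = 0.112) and no intensity trend (0.15), and in 5 of 8 fits without 1 library (TNFR2+ replicate 2 or 3 or TNFR2- replicate 1, 2 or 4, adjusted p from 0.0523 to 0.0977 in limma). That of *Nol10* was lost with no trend, with equal ribosomal protein totals and without TNFR2+ replicate 2 (adjusted p = 0.0642, 0.0988 and 0.0507). *Npm1*, *Ncl* and *Fbl*, abundant nucleolar proteins, were at 0.19, -0.06 and 0.01 (adjusted p = 0.538, 0.764 and 0.978). Of 19 genes of RNA polymerase I and rRNA transcription, with a median of 0.00, 0 passed the adjusted threshold in limma, and 2 higher and 0 lower had an unadjusted p under 0.05. Of all genes, 12.3% were higher and 10.7% lower by that p.

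Among 21 chaperones and importers that escort ribosomal proteins, 2 were higher and 0 lower past the threshold (limma, also 2 and 0 by the unadjusted p), with a median of 0.14. By the adjusted p that is 9.52% of the list, near the 7.91% of all genes. By the unadjusted p, 12.3% of all genes were higher and 10.7% lower. *Ipo5*, an import receptor, had 1041, 1059, 1129.7 and 1160.4 in TNFR2+ and 589, 654, 713 and 794 in TNFR2- libraries (log2 difference 0.68, standard error 0.14, adjusted p = 0.00959). *Nap1l1*, a histone chaperone, had 2283, 2954, 2315 and 2569 in TNFR2+ and 1206, 1466, 1559.9 and 1949 in TNFR2- libraries (log2 difference 0.72, standard error 0.15, adjusted p = 0.0109). Both rose without overlap between the groups, and both calls were lost in the fit with no intensity trend (adjusted p = 0.0556 and 0.0849).

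Of 27 tested genes that control the translation of TOP mRNAs and the supply of ribosomes, 2 were higher and 0 lower past the threshold (limma, 3 and 3 by the unadjusted p), with a median of -0.02. By the adjusted p that is 7.41% of the list, near the 7.91% of all genes. By the unadjusted p, 12.3% of all genes were higher and 10.7% lower. *Eif4e*, the cap-binding protein, had 456, 653, 434 and 547 in TNFR2+ and 215, 289, 284 and 323 in TNFR2- libraries (log2 difference 0.90, standard error 0.20, adjusted p = 0.0145). *Mxd4*, an antagonist of Myc, had 2671, 2586, 2308 and 2886 in TNFR2+ and 1421, 1503, 1410.0 and 1613 in TNFR2- libraries (log2 difference 0.81, standard error 0.12, adjusted p = 0.00114). Both genes lay higher in every TNFR2+ library than in any TNFR2- library. Over the 27 genes the groups did not overlap for 2 above and 1 below (*Rps6kb1*), where 15.4% of all genes did not overlap in either direction. The call of *Eif4e* was lost with no trend and without TNFR2+ replicate 2 (adjusted p = 0.0567 and 0.0605). *Larp1*, which holds back TOP mRNAs, had 1654, 2208, 2250.4 and 2544 in TNFR2+ and 2786, 3604, 2423 and 3474 in TNFR2- libraries (log2 difference -0.50, standard error 0.16, adjusted p = 0.0761), and *Rps6kb1*, an S6 kinase, had 439, 333, 282 and 366 in TNFR2+ and 499.7, 485, 501 and 644 in TNFR2- libraries (log2 difference -0.59, standard error 0.19, adjusted p = 0.0728). *Mtor*, *Myc* and *Eif4ebp1* were at -0.07, -0.41 and 0.04 (adjusted p = 0.874, 0.290 and 0.986).

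Introns of ribosomal protein genes also carry small nucleolar RNAs (snoRNAs), which guide the modification of rRNA and are cut from the spliced intron. The table held 42 snoRNAs inside genes of the family, 4 of them (*Snord32a*, *Snord33*, *Snord34* and *Snord35a*) in *Rpl13a*. Of the 24 with a mean of at least 10, 22 were lower and 2 higher in TNFR2+ Tregs, with a median log2 difference of -0.72. In limma 0 passed the adjusted threshold, and 7 lower and 0 higher had an unadjusted p under 0.05. Of all genes, 10.7% were lower and 12.3% higher by that p. *Snora7a*, within *Rpl32*, had 46.8, 49.9, 89.3 and 73.9 in TNFR2+ and 119, 176, 109 and 114 in TNFR2- libraries (log2 difference -1.01, standard error 0.33, adjusted p = 0.0806), without overlap. *Snord15a*, within *Rps3*, had 265, 339, 417 and 456 in TNFR2+ and 431, 912, 524 and 618 in TNFR2- libraries (log2 difference -0.72, standard error 0.24, adjusted p = 0.0914). The 77 tested snoRNAs outside the family had a median of -0.56, with 65 lower, 1 of them past the threshold, so both sets lay on the same side. By the unadjusted p from limma, 15 of these 77 were lower and 0 higher. Reads of an unspliced intron can be counted to these short RNAs.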

How the data were processed

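Sorted Tregs from spleen were sequenced as 4 TNFR2+ and 4 TNFR2- libraries, grouped by their labels. Per the labels and the study's methods, the authors trimmed reads with Trim Galore after FastQC 0.11.8, estimated transcript abundance with Salmon 1.3.0 against Ensembl GRCm38, summed it by gene and divided it by DESeq2 1.28 size factors in R 4.0. The deposited signal values are these normalized counts, which are not raw counts, so no count model was run. Of the 20172 Ensembl identifiers, 20008 matched a gene of the GENCODE annotation of GRCm38.

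The main test was limma 3.58.1 (R 4.3.3, eBayes with an intensity trend, two-sided) on log2(normalized count + 1) for the 13990 genes whose mean reached 10, with Benjamini-Hochberg adjustment over all of them and a threshold of 0.05. Fold changes on this scale understate those of low genes. Single genes had an exact permutation test over the 70 relabellings of the libraries. The fit was tested on simulated data. Depth was estimated from the step between low values, which in these files is near the worth of 1 read, and covers counting error only. Copies were found with blastn 2.17.0 at 95% identity over at least 50% of the transcript. Python 3.11.15, numpy 2.4.6, pandas 2.3.3, scipy 1.17.1 and matplotlib 3.10.9 were used.

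Named genes were those past the threshold, the 5 highest and 5 lowest log2 differences among members with a mean of at least 50, the 5 highest levels per kilobase, paralogues, proteins with a known role of their own, pathway genes past the threshold and a few regulators. Genes named for their shares, their copies or as snoRNAs were chosen after their values were seen. The members and lists were chosen with earlier results of these data known. Alternatives were other pseudocounts, filters and scalings, no trend, sample weights, a replicate block, copies summed to parents and each library left out. Scaling to equal ribosomal protein totals, and the counts without TNFR2- replicate 4, were added after the data were seen. Some genes are not reported here, although they entered every fit, sum and count.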

Additional observations from a re-analysis of the deposited data

Results flagged for a closer look

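In groups of 4 libraries, a library was marked where its gap to the nearest other was over 0.829 of the group's range (Dixon's critical value at 95%), which chance alone passes in about 1 in 20 groups. Of 84 groups tested, 3 passed, 2 of them at TNFR2- replicate 4. The subunit sums, the family sum and its share of the library were among the groups tested. In none of these was TNFR2- replicate 4 marked, although it held the highest value. *Rpl38* had 912.2 normalized counts in TNFR2+ replicate 1, below the other TNFR2+ libraries, with a gap of 0.919 of the range. *Rps12l1* had 703.6 normalized counts in TNFR2- replicate 4, with the other TNFR2- libraries listed at 0. *Rps19bp1* had 121.2 normalized counts in TNFR2- replicate 4, above the other TNFR2- libraries, with a gap of 0.921 of the range.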

How the results depend on the processing

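Of 84 members, the counts past the threshold were 0 higher and 0 lower. With a pseudocount of 5, with no filter, with a minimum mean of 50 and with sample weights, 1 member was lower in each (*Rps27rt*, adjusted p = 0.0497, 0.0468, 0.0457 and 0.0265 from limma). Without 1 library in turn, 0 to 1 were lower (*Rps27rt*, adjusted p = 0.0113 without TNFR2- replicate 3) and 0 to 1 higher (*Rpl41*, without TNFR2- replicate 4). The member median ranged from -0.22 to 0.04 over all alternatives, and leaving out single libraries gave -0.28 to -0.0054 for the large and -0.28 to 0.01 for the small subunit sum. Of all genes, 1107 passed, and 465 did with no intensity trend, 489 with equal ribosomal protein totals and 636 to 1324 over the fits that left out 1 library (636 without TNFR2+ replicate 2, 693 without TNFR2+ replicate 3 and 711 without TNFR2- replicate 2). Of the calls 57.2% were higher, and 74.5% with equal library totals, 69.6% with equal totals without mitochondrial genes, *Gm26917*, *Gm42418* and the family and 76.1% with equal ribosomal protein totals.

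Ribosome biogenesis genes past the threshold upward numbered 0 with no trend and with equal ribosomal protein totals and 0 to 1 without 1 library. Downward they numbered 0 with no trend and under the 3 scalings to equal totals, 2 with sample weights and 0 to 3 without 1 library. Chaperones upward numbered 0 with no trend. Genes of TOP mRNA control upward numbered 1 with no trend and 1 to 3 without 1 library, and downward 0 to 1 without 1 library. Ribosomal proteins under other names numbered 0 to 1 downward without 1 library. For each, the cause was not tested.

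The replicate block gave 2 members lower (*Rpl21* and *Rps7*, adjusted p = 0.0326 and 0.0454 from limma), 1 gene of TOP mRNA control lower and 1183 calls over all genes. Deviations of same-numbered libraries correlated at 0.0005, -0.0088, -0.0386 and -0.0053. Differently numbered pairs lay between -0.0989 and 0.0772, so these values do not set same-numbered libraries apart. They cannot decide whether the same mouse gave both populations, since each group has only 4 libraries and the labels do not say what the replicate number stands for.

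Of the 36 members that the naming rule takes, 21 kept their sign in all 20 alternatives and 15 did not. With equal library totals the sign turned for *Rpl11* 0.090, *Rpl12* 0.11, *Rpl22* 0.050, *Rpl3* 0.011, *Rpl36a* 0.092, *Rpl39* 0.096, *Rpl7l1* 0.072, *Rplp1* 0.13, *Rps14* 0.070 and *Rps27a* 0.049. With equal totals without mitochondrial genes, *Gm26917*, *Gm42418* and the family the sign turned for *Rpl11* 0.044, *Rpl12* 0.059, *Rpl22* 0.0042, *Rpl36a* 0.046, *Rpl39* 0.049, *Rpl7l1* 0.026, *Rplp1* 0.081, *Rps14* 0.024 and *Rps27a* 0.0030. With equal ribosomal protein totals the sign turned for *Rpl11* 0.12, *Rpl12* 0.13, *Rpl22* 0.077, *Rpl3* 0.038, *Rpl36a* 0.12, *Rpl39* 0.12, *Rpl7* 0.020, *Rpl7l1* 0.099, *Rplp1* 0.15, *Rps14* 0.097 and *Rps27a* 0.076. With TMM factors the sign turned for *Rplp1* 0.0029. With sample weights the sign turned for *Rpl39* 0.022 and *Rplp1* 0.027. Over the fits that each left out 1 library the sign turned for *Rpl10* (-0.0094 to 0.32), *Rpl11* (-0.18 to 0.11), *Rpl12* (-0.22 to 0.14), *Rpl22* (-0.18 to 0.076), *Rpl36a* (-0.13 to 0.11), *Rpl39* (-0.17 to 0.18), *Rpl7* (-0.23 to 0.0044), *Rpl7l1* (-0.15 to 0.028), *Rplp0* (-0.095 to 0.22), *Rplp1* (-0.10 to 0.19), *Rps14* (-0.19 to 0.12), *Rps19bp1* (-0.053 to 0.55), *Rps27a* (-0.18 to 0.067) and *Rpsa* (-0.037 to 0.22).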
